A study of Mus musculus with 8 samples.

Results

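Signalling by fibroblast growth factors (Fgf) was followed through 10 genes in gastrula stage mouse embryos that lacked the forkhead transcription factor Foxa2. They were 5 ligands (Fgf3, Fgf4, Fgf5, Fgf8 and Fgf15) and 5 genes whose transcription Fgf signals induce and whose products mostly act back on the pathway (Spry2, Spry4, Dusp6, Etv4 and Etv5), out of 18336 genes named on the arrays. Members were taken by gene symbol, and every probe set that named 1 of them and no other gene was kept. That gave 10 of 12422 probe sets on the Affymetrix U74Av2 array, for 8 of the genes, and 23 of 45037 on the MOE430v2 array, for all 10. Spry2 and Etv5 had no such U74Av2 probe set.

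RNA was taken at embryonic day 7.5 from the epiblast region of male and female embryos together, after the extra-embryonic part had been cut away. The Foxa2 null pools held 53 and 48 embryos, which were made by tetraploid complementation, that is, Foxa2 null embryonic stem cells were aggregated with wild-type tetraploid GFP+ host embryos. The ES cells form the epiblast in this technique, and host-derived visceral endoderm with working Foxa2 stays on the embryo. The wild-type pools held 53 and 50 ICR embryos from timed matings. The labels do not settle which strain the mutant cells came from, so genotype, strain and embryo origin cannot be told apart here. All pools mixed stages between mid-streak and head-fold, and wild-type pool 2 was the youngest by the staging in the study's methods. Each of the 4 extracts was put on 1 array of each platform, so n is 2 pools per genotype throughout and the second platform adds no embryos. Nothing in the sources used here says that the pools of a genotype came from separate matings or cell batches, and p-values measure only spread between these pools. The test used, limma, draws the spread of each probe set towards that of others of similar signal. Pools that lie close together therefore need not give a low p-value.

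Fgf ligands are secreted proteins that bind receptor tyrosine kinases together with heparan sulfate, and the activated receptors signal through Ras to the kinase Erk. At gastrulation Fgf8 and Fgf4 are made in the primitive streak, where mesoderm cells need Fgf8 to move away from the streak, while Fgf5 is a classical marker of the epiblast. Among the genes that Erk activity induces, sprouty proteins (Spry2, Spry4) and the Erk phosphatase Dusp6 damp the pathway, and the Ets transcription factors Etv4 and Etv5 carry its output to target genes. The transcripts of this last set are therefore often read as a gauge of Fgf signalling.

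The proximal promoters of the members are shown where they hold the binding letters of the factor families named above, since Ets factors are effectors of Erk and Foxa2 is a forkhead protein. Promoters of 6 of the 10 genes were taken from a RefSeq table of assembly GRCm38.p6 (7 promoters). None was found for Fgf8, Fgf15 and Etv4, and Spry4 was left out because no promoter of its chromosome, 18, is printed here. The 250 bases before each start site were searched on both strands for the Ets core CGGAA and for the forkhead letters TGTTTAC, which do not overlap each other in these windows. Of 32851 mouse promoters searched in the same way, 25.2% held CGGAA and 3.17% held TGTTTAC. Dusp6 (chr10:99262981-99263230, plus strand) held CGGAA at 3 places, which began 155, 144 and 61 bases before the start site. Fgf5 (chr5:98253934-98254183, plus strand) held it once, 241 bases before the start. Of the Etv5 promoters, the one at chr16:22439571-22439820 (minus strand) held TGTTTAC once, 183 bases before its start. The windows of Fgf3, Fgf4 and Spry2 and the other Etv5 window held neither. Capitals mark the matches, which read TTCCG or GTAAACA where they lie on the opposite strand.
Dusp6 promoter: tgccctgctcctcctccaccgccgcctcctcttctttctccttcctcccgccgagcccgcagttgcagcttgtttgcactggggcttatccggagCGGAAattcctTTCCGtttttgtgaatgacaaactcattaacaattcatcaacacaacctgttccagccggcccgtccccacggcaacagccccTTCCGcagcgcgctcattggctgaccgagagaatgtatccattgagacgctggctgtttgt
Fgf5 promoter: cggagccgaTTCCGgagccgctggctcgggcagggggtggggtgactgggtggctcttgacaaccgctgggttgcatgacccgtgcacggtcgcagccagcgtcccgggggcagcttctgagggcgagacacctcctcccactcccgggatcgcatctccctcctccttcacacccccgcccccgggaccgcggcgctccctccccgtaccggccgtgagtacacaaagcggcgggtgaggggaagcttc
Etv5 promoter: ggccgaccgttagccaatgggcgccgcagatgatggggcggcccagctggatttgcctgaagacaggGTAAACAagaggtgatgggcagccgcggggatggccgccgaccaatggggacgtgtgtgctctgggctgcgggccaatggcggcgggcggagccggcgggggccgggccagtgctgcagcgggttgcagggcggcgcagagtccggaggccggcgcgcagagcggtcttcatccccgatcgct
These are matches of letters and no measure of binding. Fgf3, Fgf4 and Fgf15 are neighbours within 62.3 kb of chromosome 7 (chr7:144838612-144900953).

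Values are MAS5 signals, 1 intensity per probe set and array, given here on the log2 scale. A probe set names its gene on each platform by a different set of short probes, so a level is compared only between pools and never between genes. Foxa2 itself had log2 signals of 6.39 and 6.55 in the Foxa2 null pools, against 7.37 and 8.08 in the wild-type pools, on U74Av2. On MOE430v2 it had 8.96 and 9.06 in the Foxa2 null pools, against 9.62 and 10.17 in the wild-type pools. The log2 ratio, Foxa2 null minus wild-type, was -1.07 in the mean of both platforms (standard error, SE, 0.20, limma adjusted p = 0.0309, Benjamini-Hochberg over all genes tested). Whether its probes lie in the deleted part of the gene was not determined. In pooled tissue, fewer cells of a type and less RNA per cell cannot be told apart, for Foxa2 and for every gene below.

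None of the 10 genes passed an adjusted p under 0.05 by limma, on either platform or in the mean of both. On U74Av2 0 of 9 tested probe sets of the members were called lower and 0 higher, where 0.173% and 0.104% of all probe sets tested were called. On MOE430v2 the counts were 0 and 0 of 21, where 0.244% and 0.19% of all were called, and in the mean of both platforms 0 of 8 genes were called, where 1.06% of all genes were called lower and 1.35% higher. At an unadjusted p under 0.05 there were 0 members on U74Av2 (5.01% of all in each direction) and 0 in the mean of both (7.84% of all lower, 7.42% higher), and on MOE430v2 1 probe set was lower and 1 higher (6.07% and 6.03% of all). The intervals below give the differences that 2 pools per genotype leave possible, and an adjusted p above the threshold does not show that the genotypes were alike.

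Fgf8, the streak ligand needed for mesoderm migration, had the largest gap between pools of 1 genotype on both platforms, among the brightest probe set of each member. Its log2 signals on U74Av2 were 4.64 and 6.28 in the Foxa2 null pools, against 5.72 and 6.59 in the wild-type pools. On MOE430v2 they were 8.31 and 9.08 in the Foxa2 null pools, against 8.41 and 8.60 in the wild-type pools. Foxa2 null pool 1 was the lowest of the 4 pools on both platforms, and the groups overlapped on both. The ratio was -0.69 (95% interval -1.87 to 0.48, adjusted p = 0.735 by limma) on U74Av2 and 0.19 (-0.45 to 0.83, adjusted p = 0.836) on MOE430v2, so the platforms gave opposite signs for the same extracts. The Foxa2 null pools differed from each other by -1.64 on U74Av2 and -0.76 on MOE430v2 (pool 1 minus pool 2), further from 0 than the genotype difference on each.

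Fgf4, which is produced by the epiblast and then the streak, likewise had ratios of opposite sign. On U74Av2 its log2 signals were 7.34 and 7.78 in the Foxa2 null pools, against 7.54 and 7.99 in the wild-type pools. The groups overlapped, with the Foxa2 null pool lower in 3 of the 4 possible pairings of pools, and the ratio was -0.20 (-0.72 to 0.32, adjusted p = 0.842 by limma). On MOE430v2 the brightest of its 4 probe sets had 7.99 and 7.93 in the Foxa2 null pools, against 7.56 and 7.84 in the wild-type pools, a ratio of 0.26 (-0.38 to 0.90, adjusted p = 0.763) with no overlap. The other MOE430v2 probe sets of Fgf4 had ratios of -0.34, -1.09 and -3.02. The last of these was too dim to be tested, and the probe set at -1.09 was the single member probe set that was lower at an unadjusted p under 0.05 (adjusted p = 0.37 by limma).

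Fgf3, a neighbour of Fgf4 on chromosome 7 and a ligand of the streak and later of the hindbrain and inner ear, had ratios below 0 on every probe set. Its log2 signals on U74Av2 were 6.30 and 6.37 in the Foxa2 null pools, against 6.53 and 7.05 in the wild-type pools. Both Foxa2 null pools were below both wild-type pools there, and the ratio was -0.45 (-1.01 to 0.10, adjusted p = 0.594 by limma). On MOE430v2 the brightest probe set had 9.22 and 9.32 in the Foxa2 null pools, against 9.30 and 9.56 in the wild-type pools, with overlap and a ratio of -0.16 (-0.57 to 0.25, adjusted p = 0.778). Its other MOE430v2 probe sets were at -0.03 and -1.23. The value of -1.23 rested on log2 signals of 7.46 and 5.44 in the Foxa2 null pools, against 7.80 and 7.58 in the wild-type pools, so that Foxa2 null pool 2 alone stood far below the rest. In the mean of both platforms Fgf3 was at -0.31 (-0.71 to 0.09, adjusted p = 0.48).

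Fgf15, the mouse counterpart of human FGF19 and the third ligand of the chromosome 7 group, was the ligand with the narrowest range over pools on U74Av2. Its log2 signals were 6.47 and 6.42 in the Foxa2 null pools, against 6.26 and 6.28 in the wild-type pools, without overlap. The ratio of 0.18 (-0.32 to 0.67, adjusted p = 0.855 by limma) was nevertheless far from the threshold. On MOE430v2 Fgf15 had 8.93 and 9.21 in the Foxa2 null pools, against 9.22 and 8.90 in the wild-type pools. There both Foxa2 null pools lay between the wild-type pools, and the ratio was 0.01 (-0.46 to 0.49, adjusted p = 0.989).

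Fgf5, the epiblast ligand, had the ratio furthest above 0 of the 10 genes, with the same sign on the brightest probe set of each platform. On U74Av2 its log2 signals were 4.94 and 5.91 in the Foxa2 null pools, against 4.72 and 5.00 in the wild-type pools, and the Foxa2 null pool was higher in 3 of 4 pairings. On MOE430v2 they were 8.59 and 9.20 in the Foxa2 null pools, against 7.997 and 8.44 in the wild-type pools, and the groups did not overlap. The ratios were 0.57 (-0.35 to 1.49, adjusted p = 0.717 by limma) on U74Av2, a 1.48-fold difference, and 0.67 (0.04 to 1.30, adjusted p = 0.387) on MOE430v2, a 1.59-fold difference. In the mean of both platforms Fgf5 was at 0.62 (-0.03 to 1.27, adjusted p = 0.353). The MOE430v2 value was the single member probe set that was higher at an unadjusted p under 0.05. Foxa2 null pool 2 was the highest of the 4 pools on both platforms, and without it the ratio was 0.084 on U74Av2, 0.37 on MOE430v2 and 0.23 in the mean of both. A second MOE430v2 probe set of Fgf5 went the other way, with 3.84 and 7.36 in the Foxa2 null pools, against 5.71 and 6.86 in the wild-type pools. Its ratio was -0.69 with an SE of 1.09, and with both probe sets taken at their median the MOE430v2 ratio was -0.0069.

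**Figure D1:**
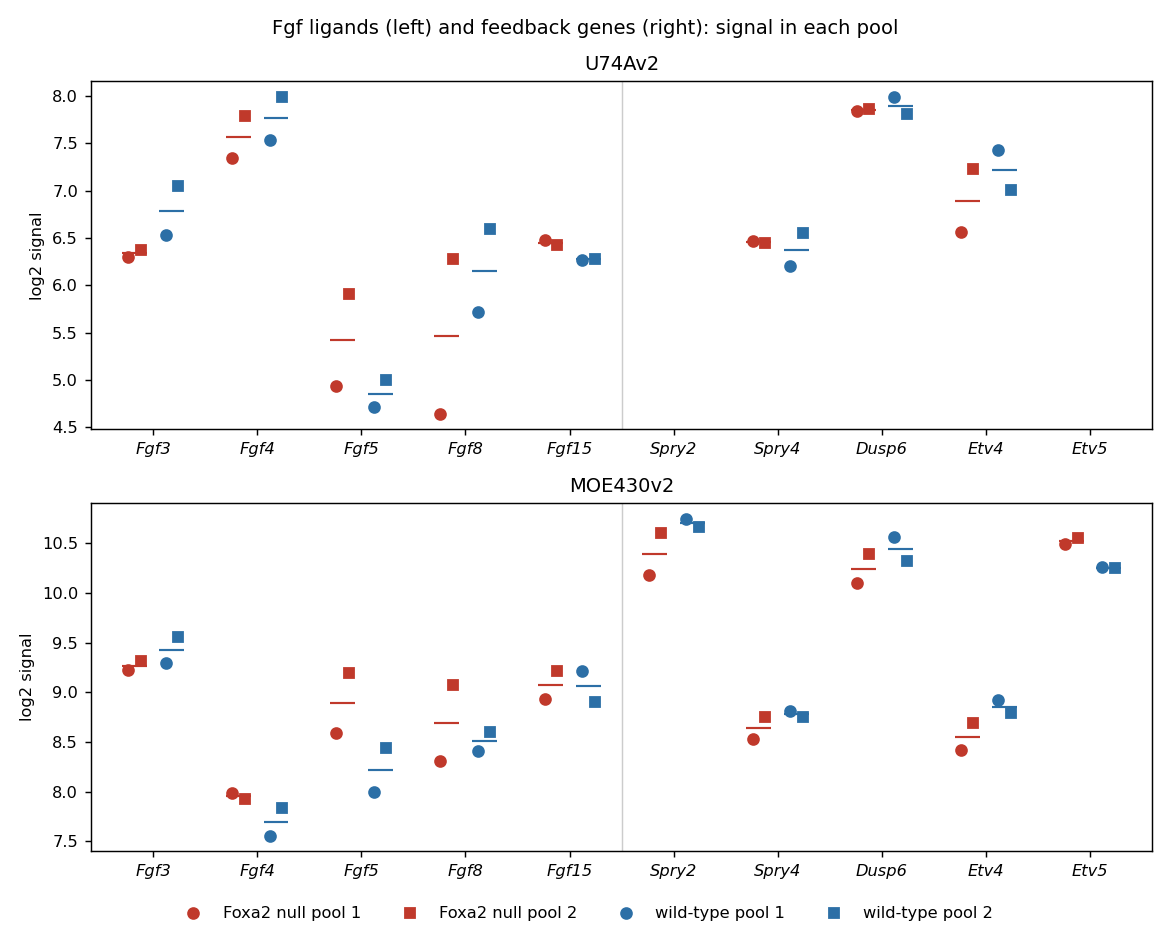
Log2 MAS5 signal of each member gene on its brightest probe set (vertical axis) in the 2 Foxa2 null pools (red) and the 2 wild-type pools (blue), on U74Av2 (top) and MOE430v2 (bottom); circles are pool 1, squares pool 2, and bars the mean of 2 pools. Red and blue points of Fgf8, Dusp6 and Fgf15 overlap on at least 1 platform, and Fgf5 in Foxa2 null pool 2 is the highest of its 4 pools on both, at 5.91 and 9.20.

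The feedback genes had ratios between -0.32 and 0.27 on their brightest probe sets. Dusp6, the phosphatase that removes phosphate from Erk, had log2 signals on U74Av2 of 7.84 and 7.86 in the Foxa2 null pools, against 7.99 and 7.81 in the wild-type pools. Both Foxa2 null pools lay between the wild-type pools, and the ratio was -0.04 (-0.43 to 0.34, adjusted p = 0.96 by limma). On MOE430v2 Dusp6 had 10.09 and 10.40 in the Foxa2 null pools, against 10.57 and 10.32 in the wild-type pools, with overlap and a ratio of -0.20 (-0.57 to 0.17, adjusted p = 0.669). The interval of the mean of both platforms, -0.43 to 0.18 around -0.12, was the narrowest of the 8 genes on both arrays. Another U74Av2 probe set of Dusp6 had a ratio of -2.36, at signals too dim to be tested.

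Of the sprouty genes, inhibitors of signalling from receptor tyrosine kinases, Spry2 was measured on MOE430v2. Its brightest probe set had log2 signals of 10.18 and 10.60 in the Foxa2 null pools, against 10.75 and 10.67 in the wild-type pools. Both Foxa2 null pools were below both wild-type pools, by a ratio of -0.31 (-0.68 to 0.05, adjusted p = 0.489 by limma), while its dimmer probe set was at 0.09. Spry4 had 6.47 and 6.45 in the Foxa2 null pools, against 6.20 and 6.55 in the wild-type pools, on U74Av2. The Foxa2 null pools again lay between the wild-type pools, and the ratio was 0.08 (-0.44 to 0.61, adjusted p = 0.948). On MOE430v2 Spry4 had 8.53 and 8.75 in the Foxa2 null pools, against 8.81 and 8.75 in the wild-type pools, a ratio of -0.14 (-0.62 to 0.34, adjusted p = 0.836) in which the groups missed an overlap only beyond the second decimal. Its other MOE430v2 probe sets scattered on both sides of 0, at -0.64, 0.53 and, untested, 0.90.

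The Ets factor genes had ratios of opposite sign on their brightest MOE430v2 probe sets, and neither passed the test. Etv4 had log2 signals of 8.42 and 8.69 in the Foxa2 null pools, against 8.92 and 8.79 in the wild-type pools, without overlap and at a ratio of -0.31 (-0.80 to 0.19, adjusted p = 0.625 by limma). On U74Av2 it had 6.57 and 7.22 in the Foxa2 null pools, against 7.43 and 7.01 in the wild-type pools, with overlap and at -0.32 (-0.93 to 0.29, adjusted p = 0.764). The second Etv4 probe sets were at 0.14 on U74Av2 and -0.04 on MOE430v2. Etv5 had 10.49 and 10.55 in the Foxa2 null pools, against 10.26 and 10.25 in the wild-type pools, on MOE430v2. Pools of 1 genotype lay close together and apart from the other genotype, and the ratio was 0.27 (-0.03 to 0.57, adjusted p = 0.474). Its other probe sets were at 0.49, with 1 Foxa2 null pool level with a wild-type pool, and at -0.27.

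**Figure D2:**
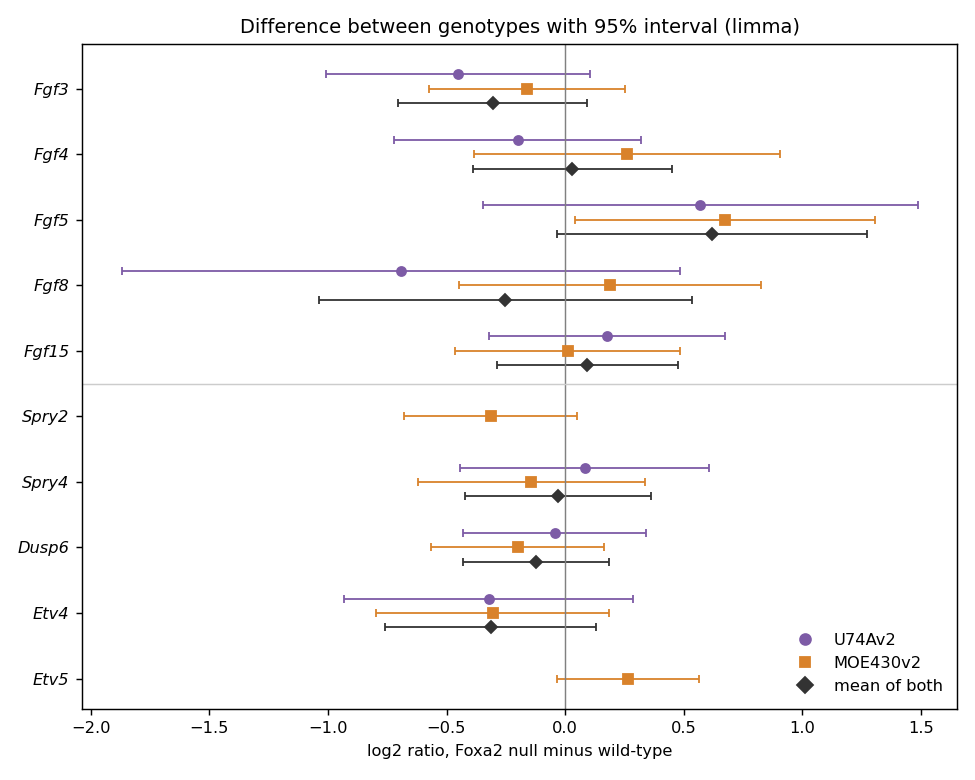
Difference in log2 signal, Foxa2 null minus wild-type (horizontal axis) for the brightest probe set of each member gene on U74Av2 (purple), on MOE430v2 (orange) and in the mean of both platforms (black); whiskers are 95% intervals from limma, n = 2 pools per genotype. Every interval except that of Fgf5 on MOE430v2 (0.04 to 1.30) includes 0, and that of Fgf8 on U74Av2 is the widest (-1.87 to 0.48).

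The ligands as a list had a median log2 ratio of -0.20 on U74Av2 and 0.19 on MOE430v2 (5 genes each), and the feedback genes of -0.04 (3 genes) and -0.20 (5 genes), against -0.01 and -0.02 over all genes tested (6410 and 14180). In the mean of both platforms the medians were 0.03 for the 5 ligands and -0.12 for 3 feedback genes, against -0.01 over 5933 genes. Pools of the genotypes did not overlap, in either direction, in 2 of 9 tested U74Av2 probe sets (1 lower, 1 higher), where 21.4% of all probe sets were lower without overlap and 18.6% higher. On MOE430v2 this held for 7 lower and 3 higher of 21, where 21.8% and 21.5% of all did the same. In the mean of both platforms it held for 1 lower (Fgf3) and 1 higher (Fgf5) of 8 genes, where 23.5% and 22.1% of all did. With 2 pools a side the smallest p of an exact permutation test is 0.33, so such separation cannot be significant here.

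Of the 8 genes on both platforms, 5 had the same sign on their brightest probe sets and 3 had opposite signs (Fgf4, Fgf8 and Spry4), although the extracts were the same. Within MOE430v2, 7 genes had several tested probe sets and in 5 of them (Fgf4, Fgf5, Spry2, Spry4 and Etv5) these lay on both sides of 0. Only Etv4 had several on U74Av2, and they too had both signs. Fgf3 and, on MOE430v2, Etv4 were the genes with several tested probe sets that all lay below 0.

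**Figure D3:**
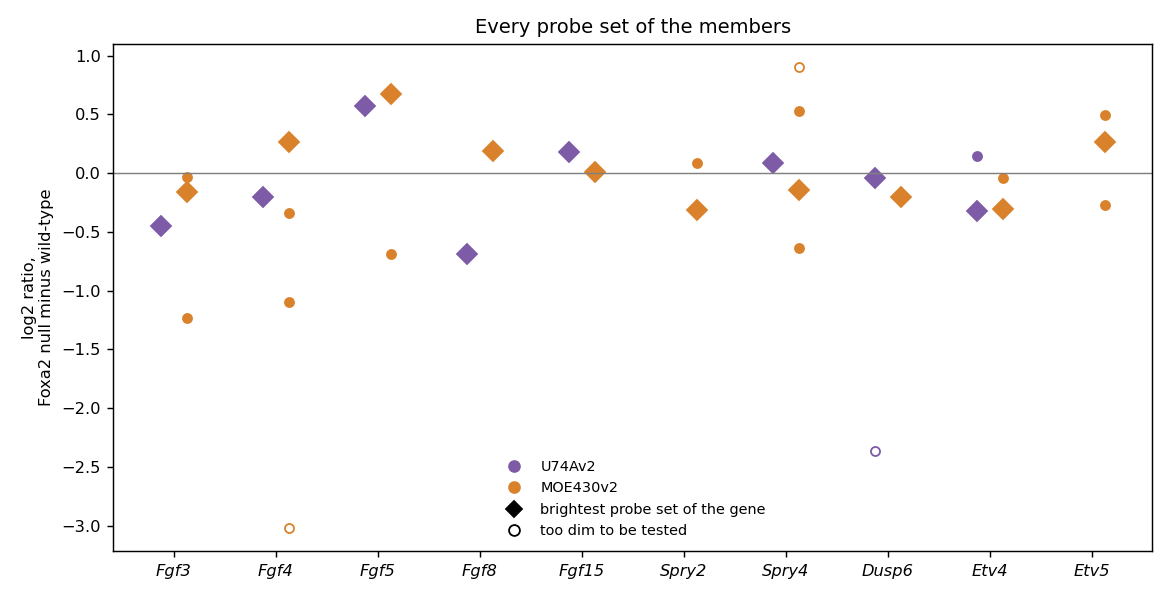
Difference in log2 signal, Foxa2 null minus wild-type (vertical axis) of every probe set of the members, on U74Av2 (purple) and MOE430v2 (orange); diamonds are the brightest probe set of a gene and open circles were too dim to be tested. Probe sets of a gene spread on both sides of 0 for Fgf4, Fgf5, Fgf8, Spry2, Spry4, Etv4 and Etv5 across both platforms, and the values furthest from 0 (-3.02 for Fgf4, -2.36 for Dusp6) are dim ones.

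The pools of 1 genotype differed from each other by about as much as the genotypes did. The genotype difference was smaller than the larger of the gaps between pools of a genotype in 7 of 8 genes on U74Av2 and 7 of 10 on MOE430v2, the exceptions being Fgf15 on U74Av2 and Fgf5, Etv4 and Etv5 on MOE430v2. Foxa2 null pool 1 was below Foxa2 null pool 2 in 4 of 5 ligands on each platform, and in 2 of 3 feedback genes on U74Av2 and 5 of 5 on MOE430v2. The wild-type pools were arranged otherwise. Among ligands, wild-type pool 1 was below wild-type pool 2, the youngest pool, in 5 of 5 genes on U74Av2 and in 4 of 5 on MOE430v2, where Fgf15 was the exception. The wild-type gap, pool 1 minus pool 2, reached -0.87 for Fgf8 and -0.52 for Fgf3 on U74Av2. Among feedback genes wild-type pool 1 was above wild-type pool 2 in 2 of 3 genes on U74Av2, Spry4 being the exception, and in 5 of 5 on MOE430v2. What part stage had in these gaps was not tested.

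**Figure D4:**
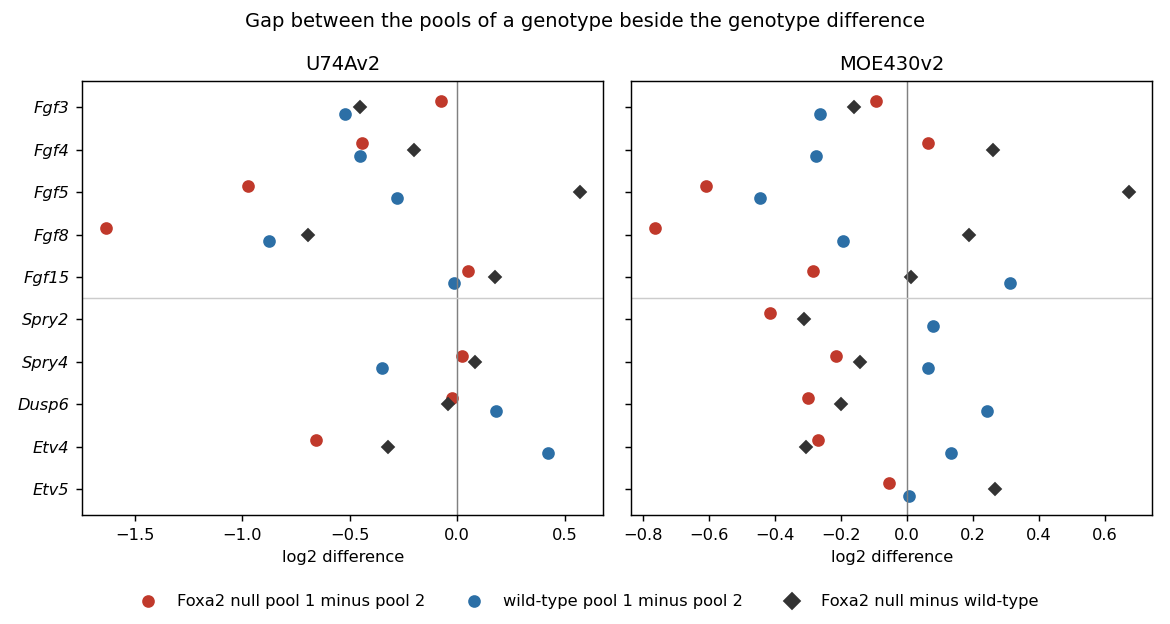
Log2 difference (horizontal axis) between the pools of a genotype, pool 1 minus pool 2, for Foxa2 null (red) and wild-type (blue), beside the difference Foxa2 null minus wild-type (black diamonds), per member gene on U74Av2 (left) and MOE430v2 (right). For Fgf8 the Foxa2 null pools differ by -1.64 and -0.76, further from 0 than the genotype difference of -0.69 and 0.19.

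Other genes of the pathway, taken from lists by function, gave 0 calls in every list. Of 17 other Fgf ligands, 12 had a probe set on U74Av2, where 2 were bright enough to be tested and both were below 0. On MOE430v2 all 17 had one and 11 were tested, 5 below and 6 above 0 (median 0.05). The 1 ligand on both, Fgf7, had opposite signs. Of the receptors and co-receptors, 3 were tested on U74Av2 (median -0.23) and 6 on MOE430v2 (median 0.19). Fgfr2, the receptor common in epithelia, had log2 signals on U74Av2 of 8.33 and 7.97 in the Foxa2 null pools, against 9.01 and 8.37 in the wild-type pools, and on MOE430v2 of 10.42 and 10.26 in the Foxa2 null, against 11.07 and 10.56 in the wild-type. On these brightest probe sets both Foxa2 null pools were lower on both platforms, and the mean ratio of -0.51 (SE 0.18, limma adjusted p = 0.212) did not pass. Other tested Fgfr2 probe sets were at -0.01, with overlap, and -0.50 on U74Av2, and at -0.40 on MOE430v2. Fgfr1, the main receptor of the epiblast and nascent mesoderm, had 9.70 and 9.61 in the Foxa2 null pools, against 9.40 and 9.30 in the wild-type pools, on U74Av2. On MOE430v2 it had 12.24 and 12.19 in the Foxa2 null pools, against 12.03 and 11.89 in the wild-type pools, and the mean ratio was 0.28 (SE 0.10, limma adjusted p = 0.227). Fgfr1 lies on chromosome 8, whose genes had a median ratio of 0.32 on U74Av2 (344 genes) and 0.35 on MOE430v2 (734 genes). The ratio of its brightest probe sets was close to these medians. Its other MOE430v2 probe sets were further above 0, at 0.47 and 0.60, both without overlap.

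Between the receptor and Erk, 10 genes were tested on U74Av2 (4 below and 6 above 0, median 0.11) and 12 on MOE430v2 (8 and 4, median -0.09). The genes furthest from 0 with the same sign on both were Gab1, a docking protein of receptor tyrosine kinases (mean ratio 0.57, SE 0.16, limma adjusted p = 0.117), the adaptor Shc1 (0.26, adjusted p = 0.376) and the kinase Braf (0.23, adjusted p = 0.581). Gab1 also lies on chromosome 8. Other feedback and target genes of the pathway numbered 1 on U74Av2, Spred2, an inhibitor of Ras signalling related to sprouty, at a mean ratio of -0.28 (adjusted p = 0.358). On MOE430v2 8 of 11 were below 0 (median -0.30), 7 of them without overlap of the pools, and 4 were lower at an unadjusted p under 0.05. Over all 14180 genes tested there, 23.7% were lower without overlap and 7% at an unadjusted p under 0.05. Among the 11 Flrt3, a membrane protein that binds Fgf receptors, had 9.34 and 8.92 in the Foxa2 null pools, against 9.95 and 9.73 in the wild-type pools (ratio -0.71, adjusted p = 0.195), and was picked for mention after its value was seen. Dusp4, on chromosome 8, was at 0.06 on MOE430v2.

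Heparan sulfate carriers and Fgf binding proteins, which hold ligands near the cell surface, numbered 11 on U74Av2 (7 below 0, median -0.09) and 14 on MOE430v2 (12 below 0, median -0.32, 8 of them without overlap, where 23.7% of all genes were lower without overlap). The glypican Gpc3 had 10.12 and 10.69 in the Foxa2 null pools, against 10.90 and 10.87 in the wild-type pools, on U74Av2. On MOE430v2 it had 12.33 and 12.52 in the Foxa2 null pools, against 13.12 and 12.76 in the wild-type pools. The mean ratio was -0.50 (SE 0.13, limma adjusted p = 0.0871), and the glypicans Gpc4 and Gpc1 were at -0.38 (adjusted p = 0.469) and -0.32 (adjusted p = 0.272). The counts of these lists describe these 4 extracts, and whether a list stands apart from other genes was not tested.

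**Figure D5:**
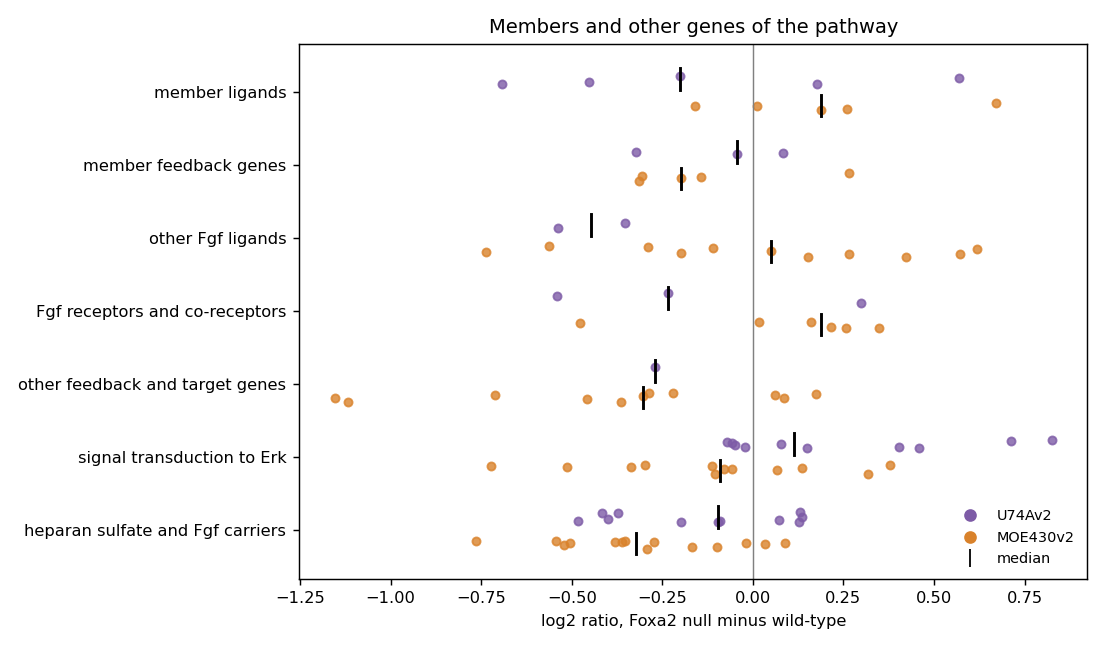
Difference in log2 signal, Foxa2 null minus wild-type (horizontal axis) of each tested gene of the members and of 5 further pathway lists (rows), on U74Av2 (purple) and MOE430v2 (orange); black ticks are medians. The member lists have medians between -0.20 and 0.19, and the other feedback and target genes (-0.30) and heparan sulfate carriers (-0.32) have the lowest MOE430v2 medians.

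Markers of the tissues that make or receive Fgf were read beside the members. The epiblast list, the tissue of Fgf5, was above 0 in 5 of 5 genes on U74Av2 (median 0.51) and 7 of 8 on MOE430v2 (median 0.37), with 0 called. Tdgf1, a co-receptor for Nodal, was at a mean ratio of 2.01 (adjusted p = 0.106 by limma), Nanog at 0.82 (adjusted p = 0.148) and Utf1 at 0.79 (adjusted p = 0.0955). For Tdgf1 the wild-type pools differed by -1.89 in the mean of both platforms (pool 1 minus pool 2). Pou5f1 was at 0.09 in that mean. On MOE430v2 Dnmt3b was at 0.05, and Otx2, the gene below 0, was at -0.35. The summed signal of the list was 2203 and 2954 in the Foxa2 null pools, against 1919 and 2262 in the wild-type pools, on U74Av2, and 26475 and 34041 in the Foxa2 null pools, against 23019 and 29845 in the wild-type pools, on MOE430v2. Dnmt3b alone gave 14575 and 17976 of the MOE430v2 sums in the Foxa2 null pools, against 13818 and 17797 in the wild-type pools. Foxa2 null pool 2, which had the highest Fgf5, also had the highest summed epiblast signal on both platforms. The remaining pools had the same order for Fgf5 and the sum on U74Av2 but not on MOE430v2. There Foxa2 null pool 1 was above wild-type pool 2 for Fgf5 and below it for the sum.

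Streak and presomitic mesoderm markers, the tissue of Fgf8, Fgf4 and Fgf3, had medians of 0.08 on U74Av2 (7 genes) and -0.24 on MOE430v2 (10 genes), with 4 of 7 and 4 of 10 genes above 0 and 1 gene called. That gene was Dll1, a Notch ligand of presomitic mesoderm, which fell by 1.01 on MOE430v2 (adjusted p = 0.0174 by limma) and by 0.90 in the mean of both platforms (adjusted p = 0.0112). Eomes, a T-box factor of the early streak, was further from 0 on the other side, at a mean ratio of 1.63 (adjusted p = 0.108), and Mesp1 and Mesp2, factors of nascent mesoderm, were at 0.81 (adjusted p = 0.245) and 0.69 (adjusted p = 0.222), while Wnt3a was at -0.76 (adjusted p = 0.0571) and Tbx6 at -0.68 (adjusted p = 0.0819). In that mean the wild-type pools differed by -1.59 for Eomes, -0.83 for Mesp1 and -0.32 for Mesp2 (pool 1 minus pool 2). The gaps were -0.12 for Wnt3a and 0.04 for Tbx6, and the genotypes overlapped for Mesp1. The genes named from this list and from the neuroectoderm list that were not called were picked for mention after their values were seen. The summed signal was 907 and 1406 in the Foxa2 null pools, against 1056 and 1262 in the wild-type pools, on U74Av2, and 7758 and 12279 in the Foxa2 null pools, against 10246 and 12219 in the wild-type pools, on MOE430v2. Foxa2 null pool 1, the lowest pool for Fgf8, had the lowest summed streak signal on both platforms. On U74Av2 the highest pool was wild-type pool 2 for Fgf8 but Foxa2 null pool 2 for the summed signal. On MOE430v2 it was Foxa2 null pool 2 for both. The medians, counts and sums of this list do not include T (Brachyury), which the paper reports as lower in Foxa2 null embryos on both platforms.

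Anterior neuroectoderm markers had medians of -0.38 on U74Av2 (8 genes) and -0.71 on MOE430v2 (7 genes), with 3 genes above 0 on each. Hesx1, a homeobox repressor of the early forebrain, fell by 1.49 (adjusted p = 0.0262 by limma) and Gbx2, a homeobox gene of the anterior hindbrain, by 0.91 (adjusted p = 0.0172) in the mean of both platforms. Six3 was at -0.94 in that mean (adjusted p = 0.0792 by limma), with both Foxa2 null pools below both wild-type pools. Zic2 was at 0.08 and Lhx5 at -0.06 in that mean, Pax6 was at -0.46 on U74Av2 and 0.01 on MOE430v2, and Sox1 had opposite signs (0.23 on U74Av2, -2.20 on MOE430v2). The summed signal was 366 and 431 in the Foxa2 null pools, against 675 and 608 in the wild-type pools, on U74Av2, and 2025 and 1989 in the Foxa2 null pools, against 3436 and 3242 in the wild-type pools, on MOE430v2. Gbx2 alone gave 158 and 198 of the U74Av2 sums in the Foxa2 null pools, against 345 and 350 in the wild-type pools. On MOE430v2 Gbx2 gave 690 and 799 in the Foxa2 null pools, against 1342 and 1306 in the wild-type pools. Node markers were below 0 in 4 of 4 genes on U74Av2 and 5 of 5 on MOE430v2, and Shh, the secreted ligand of node and notochord, fell by 1.19 (adjusted p = 0.0318) in the mean of both platforms, where Foxa2 was the other gene called. Their summed signal was 218 and 234 in the Foxa2 null pools, against 375 and 512 in the wild-type pools, on U74Av2, and 1108 and 1381 in the Foxa2 null pools, against 2355 and 2973 in the wild-type pools, on MOE430v2.

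Visceral endoderm markers, from the tissue that the tetraploid host supplies in Foxa2 null embryos, were above 0 in 7 of 8 genes on U74Av2 (median 0.46) and 10 of 10 on MOE430v2 (median 0.30), with 0 called. Apolipoprotein genes Apob and Apoa4 were at mean ratios of 0.66 (adjusted p = 0.0502 by limma) and 0.64 (adjusted p = 0.0928), and Cubn, an endocytic receptor, at 0.50 (adjusted p = 0.17). In the mean of both platforms Apoa1 was at 0.19, Rbp4 at 0.05 and Afp at -0.03, each with overlapping pools. Afp was the gene below 0 on U74Av2, at -0.48 without overlap, and it was above 0 on MOE430v2, so its platforms gave opposite signs. The summed signal was 9268 and 6401 in the Foxa2 null pools, against 6190 and 6234 in the wild-type pools, on U74Av2, and 84899 and 70029 in the Foxa2 null pools, against 60705 and 68600 in the wild-type pools, on MOE430v2. Trophoblast markers had medians of 0.47 on U74Av2 and -0.02 on MOE430v2 (5 genes each), with 0 called, Tfap2c at a mean ratio of 0.70 (adjusted p = 0.123), Hand1 at 0.62 (adjusted p = 0.0502) and Cdx2 at -0.29 (adjusted p = 0.634). Their summed signal was 997 and 1083 in the Foxa2 null pools, against 872 and 749 in the wild-type pools, on U74Av2, and 6252 and 6351 in the Foxa2 null pools, against 5400 and 4801 in the wild-type pools, on MOE430v2. No marker probe set was listed at a signal of 0. The part of these tissues in the values of the Fgf genes was not tested.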

How the data were processed

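Members and gene lists were chosen with earlier results of these data known. The authors deposited 1 MAS5 signal (a linear intensity) for each probe set and array, brought to a common trimmed mean: with 2% left off at either end it was 150 on each U74Av2 and 500 on each MOE430v2 array, although another target is named for U74Av2 in the methods. The deposited MOE430v2 values are not loess-normalized, so they were normalized here between the 4 arrays by cyclic loess after log2, and U74Av2 signals were used as scaled. Log2 values of MOE430v2 are given after that step, and summed signals are on the authors' linear scale. The median signal was 48.15 to 52.8 and 155 to 165 per array, and the number of arrays limits the precision.

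Probe sets were named from platform annotation tables, in which 10833 U74Av2 and 34945 MOE430v2 probe sets named 1 gene, 396 and 932 several, and 1193 and 9160 none. Control probe sets (66 and 64) and the dimmest 30% by mean log2 signal were left out, which left 8695 and 31526 tested. Foxa2 null was compared with wild-type in limma 3.58.1 (R 4.3.3, data.table version 1.17.8; lmFit and eBayes with an intensity trend, no block), two-sided, with Benjamini-Hochberg adjustment over all probe sets tested and a threshold of 0.05. For genes on both platforms, log2 values were centred per platform and averaged per extract. Each gene was read on its probe set with the highest mean signal. Named beside the members were list genes past the threshold and otherwise up to 3 per list that were furthest from 0 with 1 sign on both platforms, plus pathway genes on chromosome 8. Flrt3, Fgf7 and several genes of the marker lists were named outside this rule, with their values known. The fit was tested on simulated data. Alternatives covered normalization, the filter on low signals, an offset of 16 before log2, the intensity trend, probe set summary, a replicate block and leaving out each pool.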

Additional observations from a re-analysis of the deposited data

How the results depend on the processing

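No member gene was called on either platform or in the mean of both under any alternative run, and the lowest adjusted p of a member was 0.0634 (Fgf5, mean of both platforms, without Foxa2 null pool 1, by limma). Of 279 comparisons with the values reported above, 261 kept their sign and side of the threshold and 18 changed sign. Many of the 279 could not change sign. The replicate block, the intensity trend and the low filters leave a ratio as it is, as does the median for a gene with 1 tested probe set. The count of 261 is therefore no measure of how stable the signs were. With the median over a gene's probe sets, Fgf4 was at -0.34 on MOE430v2 and -0.27 in the mean of both, and Fgf5 at -0.0069 on MOE430v2. With 1 pool left out at a time, fits in which the lone pool is assumed to vary like the others, the ratios that changed sign ran as follows. On U74Av2 Dusp6 ran from -0.13 to 0.045, Etv4 from -0.65 to 0.0061, Fgf4 from -0.43 to 0.025, Fgf8 from -1.51 to 0.13 and Spry4 from -0.093 to 0.26. On MOE430v2 Fgf15 ran from -0.15 to 0.17 and Fgf8 from -0.19 to 0.57. In the mean of both platforms Fgf4 ran from -0.15 to 0.21, Fgf8 from -0.85 to 0.35 and Spry4 from -0.10 to 0.041. Fgf3 and Fgf5 kept their sign but not their size. When Foxa2 null pool 2 was dropped, Fgf5 stood at 0.23 in the mean of both, 0.084 on U74Av2 and 0.37 on MOE430v2. When Foxa2 null pool 1 was dropped, Fgf5 stood at 1.02, 1.06 and 0.98. Fgf3 on U74Av2 stood at -0.19 with wild-type pool 2 dropped and at -0.71 with wild-type pool 1 dropped. Etv5 kept its sign and ran from 0.24 to 0.29, against 0.27 with all pools. The cause of the changes was not tested. Fgf5 was removed by the 50% filter on U74Av2 and has no value there.

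The replicate numbers do not pair the samples by any label, and same-numbered pools deviated together only weakly (r = 0.11 on U74Av2 and 0.085 on MOE430v2, 2 pairs). A fit with the replicate number as a block called 0 members, left every member's ratio as reported (Fgf5 at 0.62 in the mean of both, for example), and raised the calls over all probe sets to 129 lower and 163 higher on U74Av2 and to 799 and 844 on MOE430v2, where the fit without the block called 15 and 9, and 77 and 60. Without the intensity trend limma called 0 and 0 on each platform. Between 11 and 29 U74Av2 and 14 and 155 MOE430v2 probe sets were called lower with 1 pool left out.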
